A study of Mus musculus with 7 samples.

Results

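The genes described here are 10 components of transforming growth factor beta (TGF-beta) and activin signalling: the receptors Tgfbr1, Tgfbr2, Tgfbr3, Acvr1 and Acvr1c, the transcription regulators Smad2, Smad3, Smad4 and Smad7, and the repressor Skil. They were taken by gene symbol from a table of 21902 named genes, and each had a single probe set, the group of probes that reads one gene. They were selected on the KO minus Het differences of these same arrays as well as on their role, so those differences are given as a description with no p-value. The cells were regulatory T (Treg) cells, a Foxp3-expressing kind of CD4 T cell that keeps other immune cells in check. They were sorted as CD4+ YFP+ from spleen and pLN of mouse chimeras carrying Foxp3Cre, in which Cre recombinase is made in cells that express Foxp3. The 3 KO samples were Foxp3Cre Pggt1bfl/fl and the 4 Het samples Foxp3Cre Pggt1bfl/wt, so both groups carry Cre and a floxed allele, and no sample without them was analysed here. Pggt1b codes for a subunit of geranylgeranyl transferase I, which attaches a lipid to proteins that end in a suitable motif. The labels give no age, do not say which donors or hosts made up the chimeras, and do not say whether replicates were separate animals.

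TGF-beta is secreted in a latent form, and integrins release the active ligand. The active ligand brings together type II receptors such as Tgfbr2 and type I receptors such as Tgfbr1. The type I kinase then phosphorylates Smad2 and Smad3, which bind Smad4 and enter the nucleus to regulate transcription. Smad7 and Skil are induced by the pathway and dampen it. In T cells TGF-beta induces Foxp3 in naive cells outside the thymus and the integrin chain Itgae, also called CD103, and it restrains effector programmes.

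Values are on the log2 scale after RMA, so a difference of 1 is a doubling, and the background of the array compresses differences of dim genes. The 95th percentile of 1117 olfactory receptor probe sets served as the floor of each array and lay between 5.48 and 5.77. Of the genes, 13083 lay above it on at least 3 arrays and were tested together with limma. Of these, 333 were higher and 424 lower in KO cells with an adjusted p below 0.05. Pggt1b itself read 7.09, 7.11, 6.71 and 6.97 in Het replicates 1 to 4 and 6.59, 6.62 and 6.59 in KO replicates 1 to 3 (-0.37 ± 0.13 SE, adjusted p = 0.126, limma). The labels do not say whether its probes cover the deleted part, so this value does not check the deletion. Of 11 Treg and T cell markers all were above the floor on at least 3 arrays, with Foxp3 between 11.01 and 11.36 on the 7 arrays. Of these markers 2 fell and 0 rose in KO cells, beside 3.24% and 2.55% of all genes tested, and 9 did not pass. They were Ikzf2, also called Helios, a transcription factor of Treg cells (-1.22 ± 0.16 SE, adjusted p = 0.00173, limma), and Ctla4, an inhibitory receptor of Treg cells (-0.80 ± 0.17 SE, adjusted p = 0.0212, limma). On 5 of the 11, every KO array read below every Het array, beside 9.82% of all genes tested. Il2ra cleared the floor in only 2 of the 4 Het arrays and 1 of the 3 KO arrays.

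Arrays of the genotypes also differed in markers of other cells. Of 21 myeloid markers 20 were above the floor, and 14 of these were higher and 0 lower in KO arrays, beside 2.55% and 3.24% of all genes. Their summed linear signal was 1849 to 2452 in Het and 3606 to 8573 in KO arrays, highest in KO replicate 1. All 4 Het arrays read Mrc1, C1qc and Cd14 below the floor. These genes are among the 14 and entered the test only through the KO arrays, so they had to differ. Of 7 plasmacytoid dendritic cell markers 6 were above the floor and 4 were higher, beside 2.55% of all genes. The 7 had a summed signal of 1349 to 1731 in Het and 2397 to 3498 in KO arrays. Of 7 CD8 T and natural killer cell markers 3 were above the floor, of which Cd8b1, a chain of the CD8 coreceptor, rose (0.65 ± 0.13 SE, adjusted p = 0.0154, limma), Nkg7, a cytotoxic granule protein, fell (-1.10 ± 0.12 SE, adjusted p = 0.000644, limma) and Cd8a did not pass. The natural killer cell markers Klrb1c, Ncr1, Klrd1 and Klra8 lay below the floor on every array. These 7 markers summed to 1040 to 1327 in Het and 999 to 1074 in KO arrays. Of 8 B cell markers 4 were above the floor, and of these only Blnk, an adaptor of B cell receptor signalling, passed (0.70 ± 0.17 SE, adjusted p = 0.0418, limma). The B cell markers summed to 460 to 543 in Het and 491 to 609 in KO arrays. The Treg and T cell markers summed to 21185 to 22776 in Het and 17975 to 19888 in KO arrays. The part of these shifts in the results below was not tested.

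Acvr1c and Tgfbr1, both type I receptors, were the members that lay furthest apart in opposite directions, and the stretches just before their annotated starts are printed to show what kind of promoter each has. RefSeq windows (GRCm38.p6, 250 bases before to 50 after a start) were at hand for 5 of the 10 genes. The capitals mark GGGCGG, the core of the GC box bound by Sp and Klf factors, on either strand. The first stretch is chr2:58357897-58358008 on the minus strand and the second chr4:47352972-47353221 on the plus strand. Both are 5′ to 3′ along the gene and end where the annotated gene begins.
Acvr1c: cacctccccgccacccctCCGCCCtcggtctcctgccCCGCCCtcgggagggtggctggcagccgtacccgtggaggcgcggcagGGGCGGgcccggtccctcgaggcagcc
Tgfbr1: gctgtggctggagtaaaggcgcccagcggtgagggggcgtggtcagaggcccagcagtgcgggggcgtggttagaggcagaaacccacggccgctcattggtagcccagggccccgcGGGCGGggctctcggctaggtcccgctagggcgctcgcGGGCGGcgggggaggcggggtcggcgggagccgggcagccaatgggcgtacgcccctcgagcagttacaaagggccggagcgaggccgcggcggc
Both are GC-rich, with 79.0% G and C in the 300-base window of Acvr1c and 74.7% in that of Tgfbr1. The window of Acvr1c held 3 matches to GGGCGG and that of Tgfbr1 held 2, as did the window of Smad3, while the window of Acvr1 held 6 and that of Tgfbr2 held 0. Of all 32851 windows, 35.7% held at least 1 match. The 5-letter motif CAGAC, a form of the Smad binding element, was in none of the windows at the main starts of Acvr1c, Tgfbr1, Smad3 and Acvr1 and once in that of Tgfbr2, against 49.6% of all windows on either strand. GGCGC is a GC-rich Smad motif that can overlap GGGCGG at its ends, and 36.9% of all windows held a match. It occurred 5 times in the window of Acvr1c, 3 times in that of Tgfbr1 and 7 times in that of Acvr1. The windows of Smad3 and Tgfbr2 held 0. Of the 5 matches in the window of Acvr1c, 1 lay in the printed stretch. Acvr1c and Tgfbr1 each have a second annotated window further inside the gene, with no match to GGGCGG or GGCGC. The motif CAGAC occurred once in the second window of Tgfbr1 and 0 times in that of Acvr1c. A match describes the letters in these windows and shows no binding.

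Among the receptors, Acvr1c and Tgfbr3 read higher and Tgfbr1 lower in KO arrays, while Tgfbr2 was slightly higher. Of the 9 members above the floor, 3 lay past the threshold in the fit over all genes, beside 5.79% of all genes tested. These were Tgfbr3 and Acvr1c, higher in KO like 2.55% of all genes, and Tgfbr1, lower like 3.24%. The KO arrays lay wholly outside the Het range in 5 of the 9, beside 19.5% of all genes tested. They were above it for 4 (Tgfbr2, Tgfbr3, Acvr1c and Smad4), beside 9.68% of all genes, and below it for Tgfbr1, beside 9.82%. Nothing is read from these counts, since the choice of genes used the same contrast. The median difference was 0.12 over the 9 members and -0.02 over all genes tested. In sorted bulk samples, fewer cells of a type and less RNA per cell cannot be told apart.

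**Figure D1:**
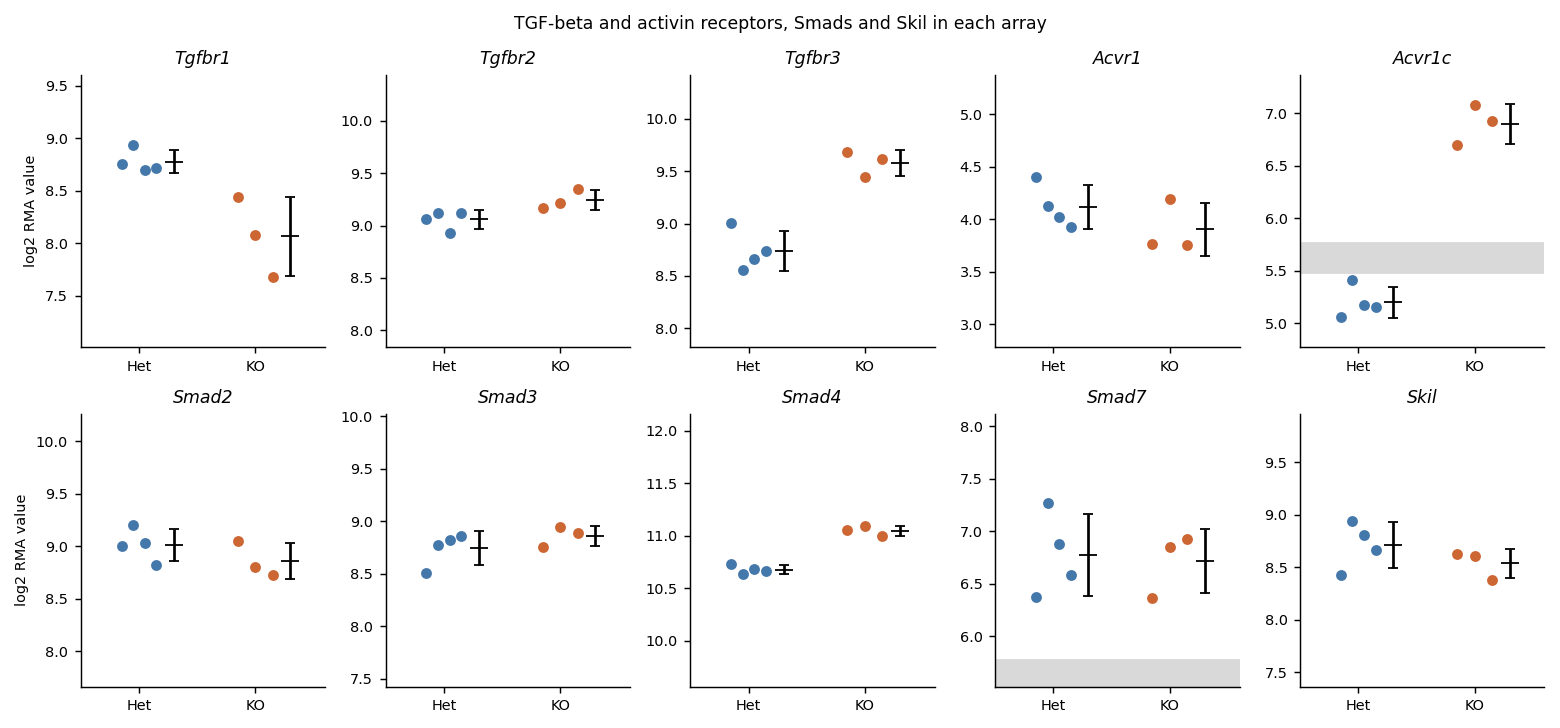
Log2 RMA value (vertical axis, all panels of the same height) of each of the 10 genes in 4 Het (blue) and 3 KO (orange) arrays, in order of replicate, with the mean and SD beside the points. The grey band is the range of the floors of the 7 arrays, 5.48 to 5.77, and lies above the panel of Acvr1. KO arrays sit apart from Het arrays for Tgfbr1, Tgfbr3, Acvr1c and Smad4, and narrowly for Tgfbr2.

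Tgfbr1, the type I receptor kinase for TGF-beta, read 8.76, 8.93, 8.70 and 8.72 in Het replicates 1 to 4 and 8.44, 8.08 and 7.68 in KO replicates 1 to 3. Every KO array was below every Het array, by at least 0.26, and the KO arrays were spread more widely, with an SD of 0.38 (n = 3) against 0.11 (n = 4) in Het. The difference was -0.71 ± 0.17 (SE), a 1.64-fold lower level. Over the 13 alternative settings it lay between -0.90 without KO replicate 1 and -0.52 without KO replicate 3. It was not past the threshold after centring each array on its median (-0.70) nor without any 1 of the 4 Het arrays, KO replicate 2 or KO replicate 3.

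Tgfbr2, the type II receptor that binds TGF-beta and activates Tgfbr1, read 9.06, 9.12, 8.93 and 9.12 in Het and 9.16, 9.21 and 9.34 in KO replicates. The groups did not overlap, but the gap between them was only 0.04. The difference was 0.18 ± 0.11 (SE), opposite in sign to that of its partner Tgfbr1.

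Tgfbr3, also called betaglycan, is a coreceptor without a kinase that presents TGF-beta to Tgfbr2 and also binds inhibin. It read 9.01, 8.56, 8.66 and 8.73 in Het and 9.68, 9.44 and 9.62 in KO replicates. All KO arrays were above all Het arrays by at least 0.44, and the highest Het value was in replicate 1. The difference was 0.84 ± 0.13 (SE), or 1.79-fold, between 0.78 and 0.93 in the 13 alternative settings.

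Acvr1c, a type I receptor for activin B and nodal, showed the largest difference of the 10 genes. It read 5.06, 5.41, 5.18 and 5.16 in Het replicates, all below the floor, and 6.70, 7.08 and 6.92 in KO replicates, all above it. The KO mean of 6.90 ± 0.19 (SD, n = 3) was at least 2.38-fold higher than a Het level at or below the floor, and the difference of the measured values was 1.70 ± 0.13 (SE). A gene that clears the floor only through the group where it is high had to differ between the groups. Without any 1 of the KO arrays it was above the floor on too few arrays to be tested, and its difference was then 1.61 to 1.80. Acvr1c was also too dim to be tested when only bright genes were kept.

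Acvr1, a type I receptor for bone morphogenetic proteins, was below the floor on all 7 arrays (3.75 to 4.40) and was not tested. Its probe set gives only an upper bound in these cells.

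**Figure D2:**
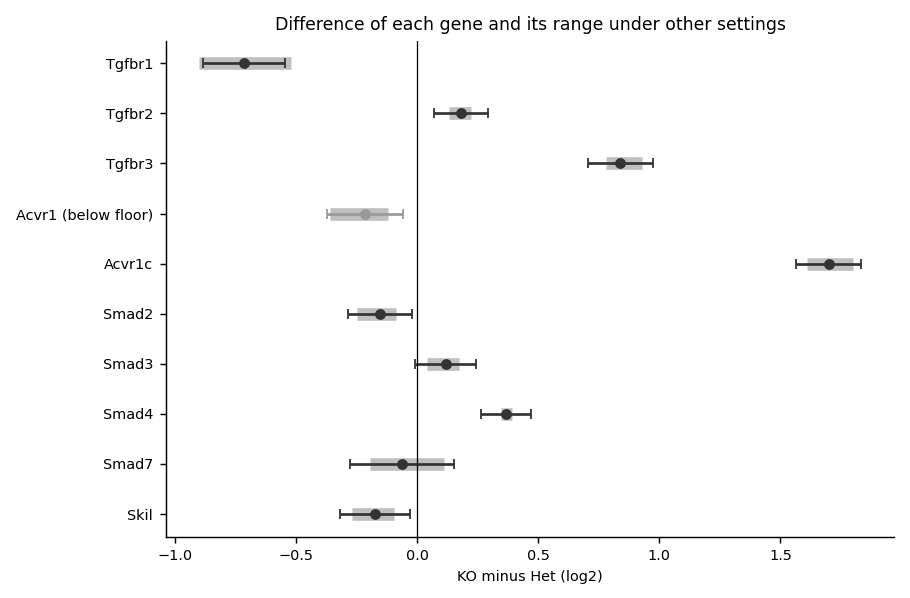
Difference of KO minus Het on the log2 scale (horizontal axis) for each of the 10 genes, as a point with its SE from limma. The grey bar spans the values under 13 alternative settings. Acvr1c at 1.70 and Tgfbr3 at 0.84 lie to the right, Tgfbr1 at -0.71 to the left, and the bar of Smad7 crosses 0.

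Of the Smads that carry the signal, Smad2 and Smad3 overlapped between the genotypes and Smad4 was higher on every KO array. Smad2, a substrate of the TGF-beta and activin receptors, read 9.00, 9.20, 9.03 and 8.82 in Het and 9.05, 8.81 and 8.72 in KO replicates, a difference of -0.15 ± 0.13 (SE) with overlapping groups. Smad3, the other substrate, read 8.51, 8.78, 8.83 and 8.86 in Het and 8.75, 8.94 and 8.89 in KO replicates. Its groups also overlapped, with a difference of 0.12 ± 0.13 (SE).

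Smad4, the shared partner of all receptor-activated Smads, had the tightest groups of the 9 measured members. It read 10.73, 10.63, 10.69 and 10.67 in Het and 11.05, 11.09 and 11.00 in KO replicates. Its groups were separated by 0.27, against an SD of 0.04 (n = 4) in Het and 0.05 (n = 3) in KO arrays. The pooled SD within groups was 0.04, where the median over all genes tested was 0.19. The difference of 0.37 ± 0.10 (SE), 1.29-fold, was not past the threshold over all genes, but lay past it when only bright genes were tested. Smad4 lies on chromosome 18, as do Smad2, Smad7 and Pggt1b. KO and Het samples differ in how many floxed copies of Pggt1b they carry. The part of this shared chromosome in the values was not tested.

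Smad7 and Skil, the members that the pathway induces and that dampen it, overlapped between the genotypes. Smad7, which blocks the type I receptor and marks it for breakdown, read 6.37, 7.27, 6.88 and 6.58 in Het and 6.37, 6.85 and 6.93 in KO replicates. It had the widest spread of the 9 measured members, with a pooled SD of 0.36, and its difference of -0.06 ± 0.21 (SE) was above 0 in 3 of 13 alternative settings. Skil, also called SnoN, which holds Smad complexes in a repressive state, read 8.43, 8.94, 8.81 and 8.67 in Het and 8.63, 8.61 and 8.38 in KO replicates. Its groups overlapped, and it differed by -0.17 ± 0.14 (SE).

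Set against the myeloid markers of the same arrays, the members behaved differently within the KO group. The mean of the 21 myeloid markers was 6.38, 5.89, 5.96 and 5.95 in Het replicates 1 to 4 and 8.19, 7.07 and 7.32 in KO replicates 1 to 3. Tgfbr3 had the same order as this mean among the KO arrays, and its highest Het value was in the Het array with the highest mean. Acvr1c had the reverse order among the KO arrays, with its lowest KO value, 6.70, in replicate 1. Tgfbr1 was highest among KO arrays in replicate 1, at 8.44. The mean of the 7 plasmacytoid dendritic cell markers had another order, with 8.36, 7.90 and 8.42 in KO replicates 1 to 3, against 6.73 to 7.07 in Het arrays. Tgfbr1 was lowest in KO replicate 3, where that mean was highest, but was not highest in KO replicate 2, where that mean was lowest. Tgfbr3 was lowest and Acvr1c highest in KO replicate 2. An order of 3 arrays can match or reverse by chance. The part of either marker set in the values of the members was not tested. Without KO replicate 1 the differences were 0.79 for Tgfbr3, 1.80 for Acvr1c, -0.90 for Tgfbr1 and 0.36 for Smad4. KO replicates 2 and 3 still had higher myeloid means than every Het array.

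**Figure D3:**
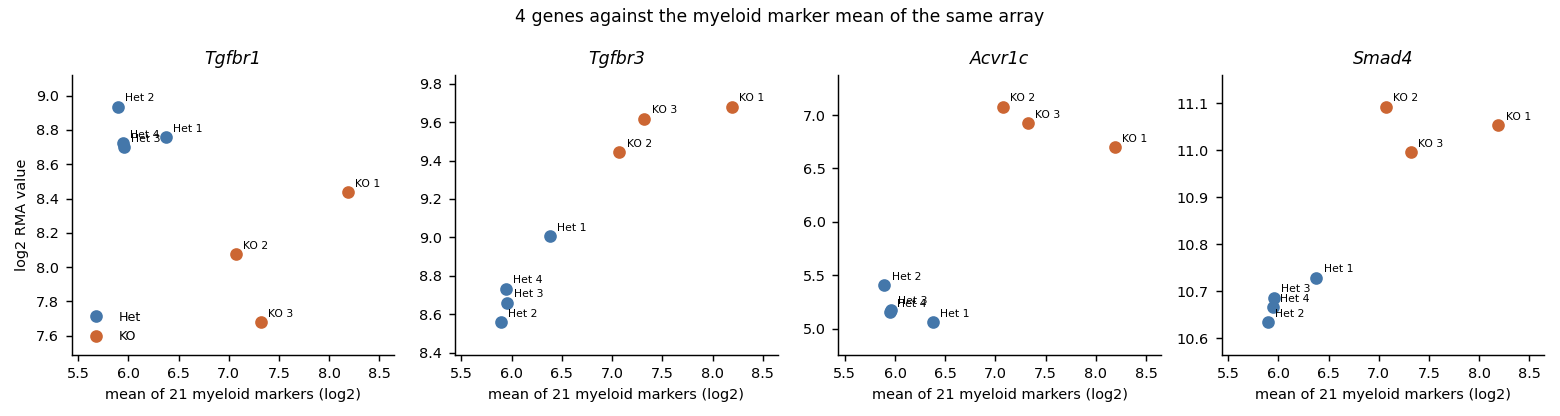
Log2 RMA value of Tgfbr1, Tgfbr3, Acvr1c and Smad4 (vertical axes) against the mean log2 value of 21 myeloid markers on the same array (horizontal axis), 4 Het arrays in blue and 3 KO arrays in orange. The KO arrays lie at 7.07 to 8.19 and the Het arrays at 5.89 to 6.38 on the horizontal axis, so genotype and myeloid signal move together.

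The remaining genes of the pathway were taken by role from a list of 102 genes, of which 79 were above the floor. In limma's fit over all genes 6 were higher and 4 lower in KO cells, and 69 did not pass, beside 5.79% of all genes past the threshold. Their median difference was 0.04, against -0.02 for all genes tested. These lists were drawn up with earlier results of these data known, those of Itgae, Itgb8, Gzmb, Eomes, Myc and Klf2 among them. Nothing is therefore read from the counts and medians of these lists beside those of all genes, here or by role below. Without KO replicate 1 the same 10 genes passed. The summed myeloid signal was still 3606 and 4282 in KO replicates 2 and 3, against at most 2452 in Het, so genotype and myeloid signal were not parted. Of the 10, ligand activation held Itgb8 alone, and the others were regulators of Smads and receptors or genes known to respond to TGF-beta.

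Of 15 ligand genes 9 were above the floor and 0 passed in limma's test (0 also at an unadjusted p under 0.05, beside 19.9% of all genes). Tgfb1, the main TGF-beta of immune cells, read 10.03 to 10.23 in Het and 10.24 to 10.35 in KO arrays (0.16 ± 0.11 SE, adjusted p = 0.479, limma). Inhbe and Inha, subunits of activin and inhibin, had the smallest p-values, with differences of 0.37 ± 0.18 (SE, adjusted p = 0.287, limma) and 0.31 ± 0.16 (SE, adjusted p = 0.319, limma). The activin A subunit Inhba and Nodal, a ligand of Acvr1c, did not clear the floor on 3 arrays. Inhbb, the subunit of activin B, another ligand of Acvr1c, was above the floor on all 7 arrays, at 5.87 to 6.45 in Het and 5.66 to 6.33 in KO arrays, with overlapping groups (-0.17 ± 0.19 SE, adjusted p = 0.686, limma).

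Among 8 measured genes for storage and activation of the ligand, 1 fell and 0 rose, beside 3.24% and 2.55% of all genes. Their median difference was -0.14, against -0.02 for all genes tested. Itgb8, which pairs with Itgav to release active TGF-beta, read 8.18, 8.60, 9.10 and 8.53 in Het and 6.95, 6.54 and 7.07 in KO replicates. All KO arrays lay below all Het arrays by at least 1.11, and the fall was 3.36-fold (-1.75 ± 0.21 SE, adjusted p = 0.00087, limma). Its partner Itgav did not pass (-0.22 ± 0.14 SE, adjusted p = 0.424, limma). Lrrc32, also called GARP, which holds latent TGF-beta on the Treg surface, did not pass either (-0.17 ± 0.13 SE, adjusted p = 0.522, limma).

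The other receptors, decoy receptors and Smads gave no call in limma's test (0 of 4, 0 of 4 and 0 of 3 measured, with 2, 0 and 1 at an unadjusted p under 0.05, beside 19.9% of all genes). Acvr2a, a type II activin receptor, read 7.30, 7.29, 7.39 and 7.43 in Het and 6.78, 6.77 and 7.18 in KO replicates (-0.44 ± 0.13 SE, adjusted p = 0.0822, limma). Its groups did not overlap, and without KO replicate 3 it passed, at -0.58. Acvr1b, the main type I receptor for activin A, read 6.14 to 6.49 in Het and 6.50 to 6.86 in KO arrays (0.39 ± 0.14 SE, adjusted p = 0.137, limma). Smad1, which acts downstream of bone morphogenetic proteins, read 7.85 to 8.26 in Het and 8.41 to 8.49 in KO arrays (0.41 ± 0.12 SE, adjusted p = 0.0903, limma), and Smad5, of the same branch, differed by 0.21 ± 0.14 (SE, adjusted p = 0.446, limma). The ligand traps and decoys with the smallest p-values were Cd109 (0.19 ± 0.15 SE, adjusted p = 0.542, limma) and Vasn (0.12 ± 0.15 SE, adjusted p = 0.721, limma).

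Among 27 measured partners and regulators of Smads, 2 rose, 1 fell and 24 did not pass, beside 2.55% of all genes higher and 3.24% lower. Their median difference was 0.12, against -0.02 for all genes tested. Smurf1, a ubiquitin ligase that targets Smads and receptors for breakdown, read 8.59, 8.50, 8.53 and 8.38 in Het and 9.10, 9.16 and 9.05 in KO replicates. It rose 1.52-fold (0.60 ± 0.11 SE, adjusted p = 0.00966, limma), with the groups 0.45 apart, while its relative Smurf2 differed by 0.02 ± 0.20 (SE, adjusted p = 0.978, limma). Nedd4l, a ubiquitin ligase that removes activated Smad2 and Smad3, read 7.80, 8.18, 8.06 and 7.89 in Het and 8.55, 8.69 and 8.85 in KO replicates. It rose 1.65-fold (0.72 ± 0.13 SE, adjusted p = 0.0108, limma), and was not past the threshold without KO replicate 3 (0.64). Ldlrad4, a membrane protein that is induced by TGF-beta and keeps Smad2 and Smad3 from the receptor, read 9.46, 9.42, 9.36 and 9.32 in Het and 8.66, 8.80 and 8.44 in KO replicates. It fell 1.69-fold (-0.76 ± 0.12 SE, adjusted p = 0.00465, limma), with no overlap of the groups. Nedd4l and Ldlrad4 lie on chromosome 18 with Pggt1b, and the part of the shared chromosome in their values was not tested. Pmepa1, a relative of Ldlrad4 that is also a target of the pathway, differed by -0.00 ± 0.12 (SE, adjusted p = 0.996, limma).

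Genes that TGF-beta is known to induce went both ways. Of 20 above the floor 1 rose, 2 fell (Itgae and Ldlrad4) and 17 did not pass, beside 2.55% of all genes higher and 3.24% lower. Their median difference was -0.04, against -0.02 for all genes tested. Itgae, the integrin chain that binds E-cadherin on epithelium, read 8.14, 8.60, 8.65 and 8.04 in Het and 6.14, 6.28 and 5.92 in KO replicates. It fell 4.74-fold (-2.25 ± 0.17 SE, adjusted p = 0.000149, limma), and the groups were 1.76 apart. Junb read 10.94 to 11.11 in Het and 10.25 to 10.75 in KO arrays without passing (-0.49 ± 0.14 SE, adjusted p = 0.0631, limma), and passed when only bright genes were tested. Foxp3 differed by 0.06 ± 0.12 (SE, adjusted p = 0.836, limma). Tgfbi, a secreted matrix protein that macrophages also make, rose from a Het range of 5.07 to 5.66 to 7.63, 6.26 and 6.45 in KO replicates 1 to 3 (1.40 ± 0.29 SE, adjusted p = 0.0194, limma). It cleared the floor in 1 of the 4 Het arrays, was highest in the KO array with the highest myeloid mean, differed by 0.98 without that array, and was not past the threshold without Het replicate 3 (1.34). When only bright genes were kept, Tgfbi was too dim to be tested.

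Of 11 genes that TGF-beta is known to repress in T cells, 8 were above the floor, of which 3 rose, 1 fell and 4 did not pass, beside 2.55% of all genes higher and 3.24% lower. Their median difference was 0.40, against -0.02 for all genes tested. The results of Eomes, Myc, Klf2 and Gzmb were known when this list was drawn up, so its count and median are a description. Eomes, a transcription factor of cytotoxic T cells, read 6.42, 6.09, 6.48 and 6.14 in Het and 7.14, 7.23 and 7.02 in KO replicates, a 1.80-fold rise (0.85 ± 0.13 SE, adjusted p = 0.00427, limma). Myc, a driver of cell growth, rose 1.47-fold (0.55 ± 0.10 SE, adjusted p = 0.0113, limma). Klf2, which keeps T cells quiescent and recirculating, rose 1.63-fold (0.70 ± 0.14 SE, adjusted p = 0.0174, limma). The Klf2 call was lost without Het replicate 2 (0.67), Het replicate 3 (0.69), KO replicate 2 (0.58) or KO replicate 3 (0.68). S1pr1, the exit receptor that Klf2 controls, did not pass (0.40 ± 0.12 SE, adjusted p = 0.083, limma). Gzmb, a cytotoxic granule protease, went the other way, from 7.20, 7.73, 7.75 and 7.08 in Het to 5.63, 6.21 and 5.80 in KO replicates, a 2.95-fold fall (-1.56 ± 0.20 SE, adjusted p = 0.00135, limma). Tbx21, the Th1 regulator, read 5.88 to 6.52 in Het and 5.15 to 5.78 in KO arrays and did not pass (-0.61 ± 0.19 SE, adjusted p = 0.0909, limma). Myeloid markers were higher on the KO arrays on which both of these lists were read, at a median difference of 1.48, and their part in these lists was not tested.

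**Figure D4:**
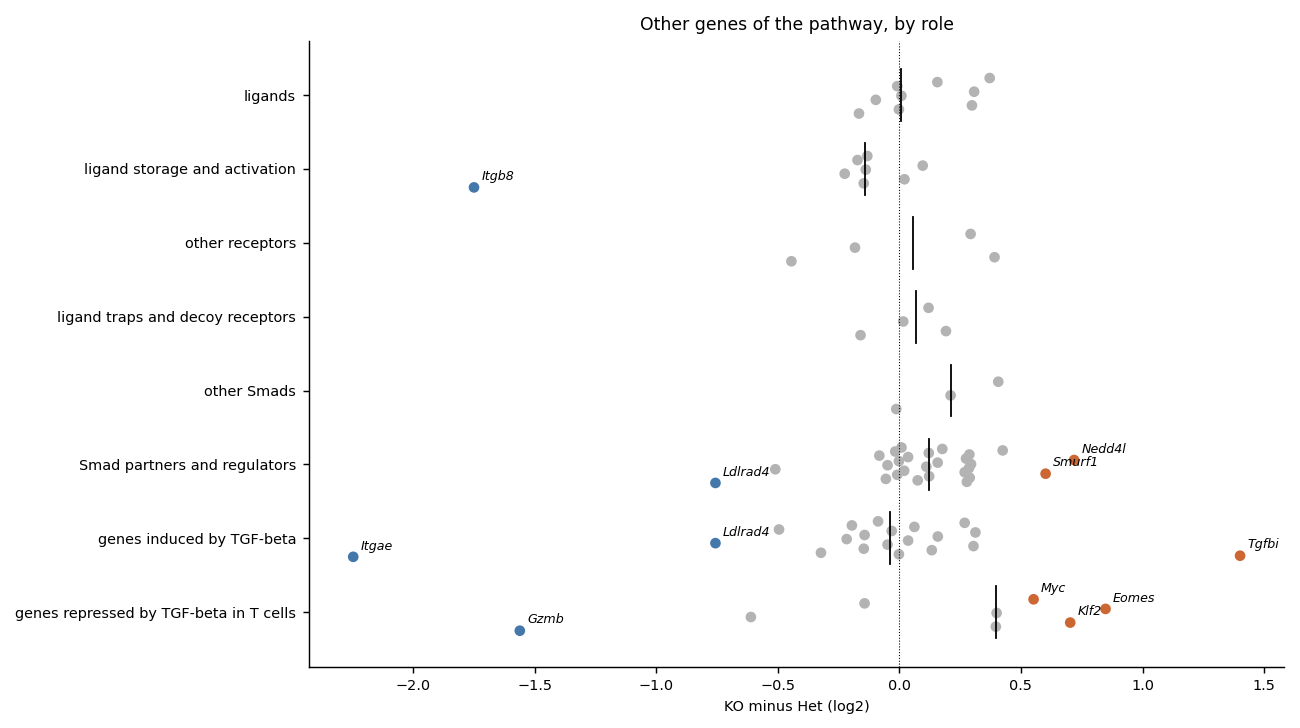
Difference of KO minus Het on the log2 scale (horizontal axis) for the other pathway genes above the floor, 1 point per gene, by role (rows; a gene with several roles appears in each, and height within a row carries no value). Orange points (higher in KO) and blue points (lower in KO) passed the threshold of 0.05 on the adjusted p, grey points did not pass, and black bars are the medians of the rows. Itgae at -2.25 and Itgb8 at -1.75 lie furthest to the left and Tgfbi at 1.40 furthest to the right.

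The annotation columns of the deposited table give groups that were not chosen for their values. They place 8 of the 10 members in a TGF-beta signalling pathway of 49 genes, all but Acvr1 and Acvr1c, and 9 of the 10 under Smad binding, a function given to 50 genes. Of the other 41 genes of that pathway 30 were above the floor, and 2 of these rose and 0 fell, at a median difference of -0.00. With 5.79% of all genes past the threshold, a count of 2 in 30 is near the background. The 2 were Lef1, a transcription factor of naive and resting T cells that can bind Smads (0.60 ± 0.12 SE, adjusted p = 0.0193, limma), and Zeb2, a Smad-binding repressor also expressed by myeloid cells (0.78 ± 0.17 SE, adjusted p = 0.0255, limma). Of the 41 genes under Smad binding that are not members 28 were above the floor and 0 passed in limma's test, with 6 at an unadjusted p under 0.05. That count is near the 19.9% of all genes at that level. The 28 genes had a median difference of 0.19, against -0.02 for all genes tested, and 21 of them were higher in KO by sign, as were 6111 of all 13083. Every KO array read above every Het array for 8 of the 28 and below for 0, beside 9.68% and 9.82% of all genes.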

How the data were processed

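Total RNA from 7 sorted Treg samples was amplified with the NuGEN WTA Pico v2 kit and hybridised to single-colour arrays, per the labels' protocols. Per the submitters' processing notes, RMA in Affymetrix Expression Console 1.1 gave the deposited values, which are on the log2 scale. RMA equalises the arrays, so a change shared by most genes would be reduced. Both deposited tables hold the same values. Of 28846 probe sets 22203 had a gene symbol, and the brightest probe set over the 7 arrays stood for the gene. Ccn2 was matched through a RefSeq synonym.

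Differences are KO minus Het. They were fitted with limma 3.58.1 in R 4.3.3 (lmFit, eBayes) with Benjamini-Hochberg adjustment over 13083 genes, and the fit was tested on simulated data. Replicates were numbered in accession order and pair nothing. Since replicates may be technical, p-values speak only of the variation among these samples. The labels name no batch, and precision is limited by the number of arrays.

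The members, the gene lists and the tests were chosen with earlier results of these data known, Itgae, Itgb8, Gzmb, Eomes, Myc, Klf2 and Foxp3 among them. Named are all members, Pggt1b, each pathway gene past the threshold, and the 2 with the smallest p in roles without one. Other list genes were named after their values were seen. The alternatives were array median centring, quantile normalization, no filter, a filter 1 log2 unit above the floor on the mean, the mean of probe sets, a floor at the 90th percentile, and leaving out each array.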

Additional observations from a re-analysis of the deposited data

How the results depend on the processing

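Under 13 alternative settings all 130 values of the 10 member differences lay within the larger group SD of the main value. Of these values 3, all of Smad7, changed sign. The filter, floor and probe-set settings could not move a member difference, since each member had a single probe set. Only the 2 scaling settings and the left-out arrays could move it. Leaving out 1 array shifts a group mean by less than that group's SD, so there the outcome was fixed in advance. Only the 2 scaling settings could have gone past the SD, and the count of 130 is no measure of robustness. Among the tested values of the pathway genes named by the rule, 6 of 229 lost a call and 1 (Acvr2a) gained one. The other 222 kept their side of the threshold, with 1 change of sign, in Vasn. Junb, outside that rule, gained a call when only bright genes were tested. Tgfbi was too dim to be tested under that filter, so Junb stood in its place in the count of 10 pathway genes. Leaving out 1 array gave 442 to 751 genes past the threshold over all genes, 180 to 293 higher and 233 to 458 lower, 1 to 2 members past it, and 8 to 10 pathway genes, 4 to 6 higher and 4 to 5 lower. Leaving out an array lowers the number of samples, and leaving out any KO array removes Acvr1c from the tested genes. The filter for bright genes removes it too, and under that filter Smad4 lay past the threshold with Tgfbr1 and Tgfbr3. The other settings gave 657 to 774 genes over all genes, 2 to 3 members and 10 pathway genes each. No paired analysis was possible because the labels give no replicate numbers that the groups share. Values near the floor, such as those of Acvr1c in Het arrays and of Acvr1, are bounds.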

Other observations

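Among the members above the floor on all 7 arrays Tgfbr3 differed most between the genotypes. The genes whose values followed it most closely over the 7 arrays were Nudc (Pearson r = 0.996), Cd74, a chaperone of MHC class II (0.990), Ppp2r5b (0.988), the macrophage gene Mpeg1 (0.986) and Wdfy3 (0.986). These values share the genotype split. With the group means taken out of each gene, the closest were Asah2 (r = 0.996), Mroh1 (0.981), Dlx4 (0.974), Rims1 (0.971) and Isoc1 (0.966), which themselves differed by -0.09 to 0.10 between the genotypes. These are the highest of 13082 correlations over 7 arrays and are given as a description.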
